A study of Homo sapiens with 77 samples.

Results

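The comparison described here set KARPAS422 cells treated with EPZ-6438 and VTP50469 together (Combo, 2 libraries) against KARPAS422 cells treated with EPZ-6438 alone (EPZ, 2 libraries), and so measured what menin inhibition added to EZH2 inhibition. The members were the 4 RNA-seq libraries that the labels give to these treatments in the drug combination experiment, of 77 samples in the series and 32 RNA-seq libraries. KARPAS422 is an established diffuse large B cell lymphoma line that carries a mutant EZH2. EPZ-6438, also known as tazemetostat, inhibits the methyltransferase EZH2 and was given at 1 µM, and VTP50469, which blocks the binding of menin to its partners, was given at 330 nM, both for 48 h. Beside these stood 2 control libraries, labelled CTR, and 2 treated with VTP50469 alone (VTP) of the same line. All 8 came from a single line, so no other genetic background enters the main comparison. For comparison, 2 side-by-side views were added. The same pair of treatments, at the same doses, was read in DHL10 (SuDHL10) after 24 h. This is another diffuse large B cell lymphoma line that carries a mutant EZH2. KARPAS422 treated with another menin inhibitor, MI-503, at 800 nM for 3 days was read against its own DMSO libraries.

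EZH2 is the catalytic subunit of Polycomb repressive complex 2 (PRC2), which methylates lysine 27 of histone H3 and keeps target genes silent. In germinal center B cells it holds down genes of differentiation, antigen presentation and cell cycle exit, and mutant EZH2 does so more strongly in lymphoma. Menin, encoded by MEN1, is an adaptor that brings the MLL methyltransferases KMT2A and KMT2B, which methylate lysine 4 of histone H3, to promoters.

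The libraries held 8956156 to 17489103 counts in the EPZ and Combo groups and 12817176 to 21837235 in the CTR and VTP groups. The table lists 21455 genes, of which 13223 had enough counts to be tested and 8682 averaged 10 CPM (counts scaled to library size) or more over the 4 libraries compared. All 8 libraries carried the B cell markers, whose summed level was 4532 to 5660 CPM. Markers of other cells summed to 20.2 to 36.7 CPM for myeloid cells, 57.6 to 73.1 CPM for epithelial cells and 1.18 to 5.12 CPM for erythroid cells and platelets. The T and NK cell sums of 270 to 358 CPM came mostly from CD3G. Those of fibroblasts and endothelial cells, 629 to 1413 CPM, came mostly from DCN. CD2, CD8A and COL1A1 were at 0 to 0.593 CPM in 7 libraries and at 1.38 to 3.80 CPM in Combo 2, and CD4 and VWF were also highest there. Other members differed. CD3D was at 39.6 to 64.9 CPM and lowest in Combo 2, and CD3E, TRAC and VIM were not highest in it. NCAM1 was at 9.07 and 7.85 CPM in EPZ and at 19.1 and 22.5 CPM in Combo.

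Library Combo 2 stood apart from the other 7. Its 402 olfactory receptor genes, which a B cell line should leave silent, summed to 80.5 CPM with 1157 counts, against 54 to 240 counts elsewhere. It placed 3.52% of its counts in tested genes under 10 CPM, against 0.699% to 1.23% elsewhere, and had a count in 18199 genes, against 14200 to 16956. Across genes of 10 CPM or more, Combo 1 and Combo 2 differed with an SD of 0.48 on the log2 scale, compared with 0.16 for the EPZ pair, and the correlation of their log2 values was 0.944 against 0.994. No label marks a batch that would separate this library, and the fit was repeated without it. That fit leaves 1 Combo library, which is then assumed to vary like the libraries of the other groups, so a call kept there carries no replicate check of Combo.

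**Figure D1:**
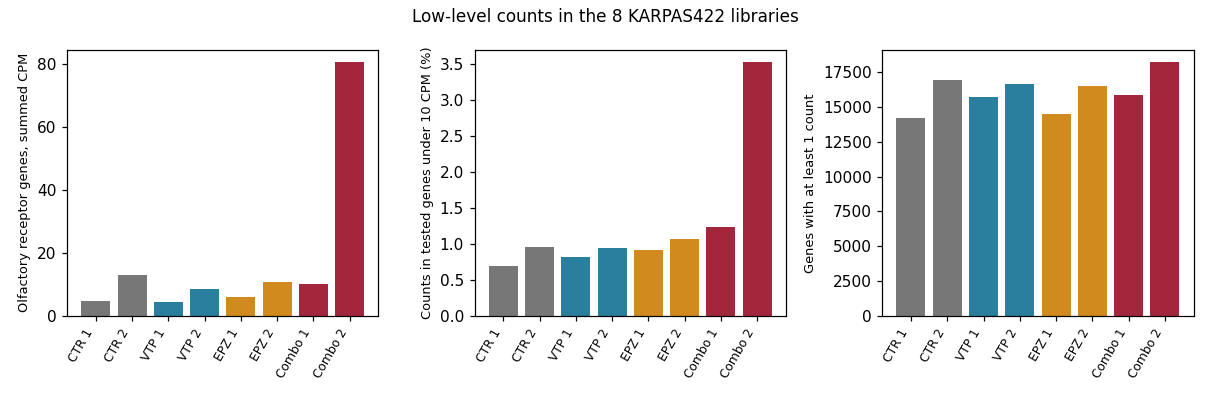
The panels plot, for each of the 8 KARPAS422 libraries, the summed CPM of olfactory receptor genes, the share of counts in tested genes under 10 CPM, and the number of genes with at least 1 count. Combo 2 has the highest bar in all 3 panels, at 80.5 CPM, 3.52% and 18199 genes.

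Adding VTP50469 to EPZ-6438 moved expression in both directions. Interferon-stimulated genes and 12 of 33 B cell surface antigens rose, while most genes of DNA replication, mitosis, ribosome biogenesis, nucleotide synthesis and the heat shock response fell. Among genes of 10 CPM or more, 603 were higher (6.95% of those tested) and 696 were lower (8.02%) with both drugs when edgeR's quasi-likelihood test had to give an adjusted p below 0.1 with a change of more than 1.5-fold. Over all tested genes, 893 were higher (6.75%) and 712 lower (5.38%). Of the 603 rises 223 passed 2-fold and 37 passed 4-fold, and of the 696 falls 55 passed 2-fold and 0 passed 4-fold. These sizes are not compared, because a gene low with EPZ-6438 can reach a mean of 10 CPM through the Combo libraries alone. Calls upward made up 46.4% of all calls at 10 CPM or more, and 67.7% when libraries were scaled by their totals alone, a scaling that moved the median log2 change of all genes from 0.08 to 0.21. Without Combo 2 there were 637 rises (7.48%) and 328 falls (3.85%) at 10 CPM or more, of which 483 rises and 289 falls were also called with it. Without Combo 1 there were 779 rises and 2245 falls, and with a single EPZ library left the counts were 79 and 12 or 50 and 13.

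Each replicate pair was then read alone, as Combo 1 minus EPZ 1 and Combo 2 minus EPZ 2 on a log2 scale after adding 0.5 CPM. All 603 rises and all 696 falls had the same sign in both pairs and did not overlap between the groups, which the call from these same 4 libraries nearly fixes. Over all 8682 genes of 10 CPM or more, 6423 had the same sign in both pairs. The rises had nearly the same size in each pair, with medians of 0.86 and 0.89, and 419 of them passed 1.5-fold in both. The falls were smaller in the first pair, with a median of -0.56, than in the second, with -0.94, and 273 passed 1.5-fold in both. Of the 696 fallen genes, 663 were lower in Combo 2 than in Combo 1. Of the same 696, 596 were lower in CTR 2, 509 in EPZ 2 and 461 in VTP 2 than in the first library of that group. Over all genes of 10 CPM or more, the median log2 difference of library 2 minus library 1 was negative in every group. It was -0.25 in Combo, -0.08 in CTR, -0.04 in EPZ and -0.03 in VTP.

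**Figure D2:**
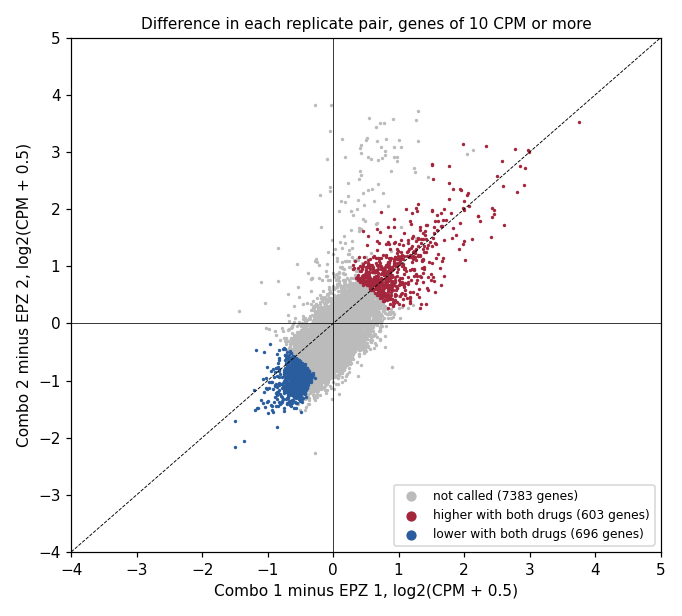
Each point is a gene of 10 CPM or more, with its log2 difference between Combo 1 and EPZ 1 on the x axis and between Combo 2 and EPZ 2 on the y axis, and the dashed line marks equal differences. The 603 rises (red) lie around the line, the 696 falls (blue) lie mostly below it, and a group of grey points rose in the second pair alone.

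Counts of single lists below use the adjusted p alone, at which 10% of all tested genes were higher and 10.9% lower. The median log2 change was 0.08 over all tested genes and -0.12 over those of 10 CPM or more, and list medians are to be read against these. Without Combo 2, 11.4% of all tested genes were higher and 7.78% lower, and list counts from that fit are to be read against those shares.

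Interferon-stimulated genes rose together. Interferon signaling switches these genes on, and their products sense, edit or degrade viral nucleic acids. Of 47 tested members 36 were higher and 0 lower with both drugs than with EPZ-6438 alone, with a median log2 change of 0.86, and without Combo 2 the count was 45 of 47. The median was 1.00 in the first replicate pair and 0.67 in the second. LGALS3BP, a secreted glycoprotein bound by galectins and induced by interferon, was at 51 and 52.3 CPM in the EPZ libraries and at 217 and 220 CPM in the Combo libraries. The log2 change was 2.08 ± 0.12 (SE) with an adjusted p of 0.0015.

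MX2, a GTPase that restricts viruses, stood at 247 and 234 CPM with EPZ-6438 and at 874 and 743 CPM with both drugs, a change of 1.75 ± 0.11 with an adjusted p of 0.0019. IFI6, a small protein that protects infected cells, rose from 609 and 602 CPM to 1670 and 1566 CPM, a change of 1.42 ± 0.08. OASL, a relative of the oligoadenylate synthetases, rose from 29.2 and 26.6 CPM to 93 and 88.3 CPM, a 3.25-fold rise in the mean. The cytosolic RNA sensor IFIH1 rose from 12.4 and 12.1 CPM to 68.9 and 45.1 CPM, a change of 2.22 ± 0.20. ZBP1, a sensor of Z-form nucleic acids that the lists hold among plasma cell genes, rose from 16.7 and 14.9 CPM to 97 and 91.6 CPM, a change of 2.58 ± 0.13.

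These same genes stood above the CTR level under each drug alone. LGALS3BP was at 20 and 24.4 CPM in CTR and at 97.8 and 95.4 CPM in VTP, and IFI6 at 297 and 307 CPM in CTR and at 1127 and 1020 CPM in VTP. The median over the 47 members was 1.12 for VTP minus CTR, with 32 higher, and 0.99 for EPZ minus CTR, with 37 higher. The EPZ libraries are shared between that last comparison and the main one, so their values are only placed side by side. With both drugs, MX2 reached 743 to 874 CPM against 345 to 349 CPM with VTP50469 alone and 103 CPM in both CTR libraries.

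The promoters of this list carry a shared sequence. The interferon-stimulated response element was searched on both strands as TTTC, any 2 bases and TTTC, from 250 bases before to 50 bases after each start site in RefSeq (GRCh38.p14). It was present in 26 of the 38 list members with a promoter in that table (68.4%), in 18 of the 28 members that rose and had one, and in 428 of 10185 tested genes with one (4.2%). A match is a description of these letters and not evidence of binding. The promoters of 3 of the risen genes with the smallest p are shown because they hold the element, in capitals. LGALS3BP lies at chr17:78979874-78980173 on the minus strand, IFI6 at chr1:27672143-27672442 on the minus strand with 3 matches, and ISG20, an exonuclease of RNA, at chr15:88638766-88639065 on the plus strand.
LGALS3BP: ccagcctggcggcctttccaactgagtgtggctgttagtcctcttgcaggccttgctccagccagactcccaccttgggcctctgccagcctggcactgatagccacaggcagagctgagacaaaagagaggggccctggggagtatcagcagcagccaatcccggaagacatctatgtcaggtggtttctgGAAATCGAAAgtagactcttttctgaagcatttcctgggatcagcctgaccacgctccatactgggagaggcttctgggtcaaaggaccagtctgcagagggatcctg
IFI6: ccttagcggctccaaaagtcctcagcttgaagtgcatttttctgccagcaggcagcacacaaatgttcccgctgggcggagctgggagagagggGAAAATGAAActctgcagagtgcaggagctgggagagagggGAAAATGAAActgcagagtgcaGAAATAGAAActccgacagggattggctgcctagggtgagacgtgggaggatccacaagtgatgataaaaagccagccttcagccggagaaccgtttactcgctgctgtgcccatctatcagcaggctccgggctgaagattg
ISG20: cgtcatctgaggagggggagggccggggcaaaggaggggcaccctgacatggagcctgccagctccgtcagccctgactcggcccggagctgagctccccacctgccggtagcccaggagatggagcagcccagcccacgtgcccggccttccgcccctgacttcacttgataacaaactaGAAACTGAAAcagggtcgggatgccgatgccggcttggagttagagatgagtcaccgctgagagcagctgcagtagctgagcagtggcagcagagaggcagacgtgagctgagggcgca
ISG20 itself rose from 119 and 109 CPM to 282 and 265 CPM, a change of 1.26 ± 0.10.

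Some genes of antigen presentation rose. In the class I list 5 of 11 tested members were higher and 1 was lower, with a median of 0.27. The class I heavy chain HLA-B rose from 342 and 335 CPM to 594 and 664 CPM, a change of 0.89 ± 0.11, and HLA-C by 0.84 ± 0.09. Their reads may be shared among these near-identical genes, so the values for each are uncertain. NLRC5, the transactivator of class I genes, rose from 125 and 117 CPM to 188 and 198 CPM, a change of 0.67 ± 0.10. CALR, the chaperone calreticulin, was the member that fell, by 0.35 on the log2 scale with an adjusted p of 0.036. In the class II list 2 of 6 tested members were higher, the invariant chain CD74 by 0.38 ± 0.07 and HLA-DQB1 by 0.43 ± 0.10, and the transactivator CIITA changed by 0.24 without passing the test.

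The 12 largest rises at 10 CPM or more began with CEACAM1. This gene, an inhibitory adhesion receptor, was at 1.46 and 1.72 CPM with EPZ-6438 and at 25.8 and 24.9 CPM with both drugs, a change of 3.98 ± 0.37 with an adjusted p of 0.0047. LGALS9, a galectin bound by immune checkpoint receptors, rose from 6.61 and 7.06 CPM to 56.2 and 60.1 CPM, a change of 3.08 ± 0.21. CXCR4, the chemokine receptor that places B cells in the dark zone of germinal centers, rose from 3.03 and 3.04 CPM to 26.5 and 22.8 CPM, a change of 3.02 ± 0.23. The rule that named these 3 genes required both Combo libraries to lie above both EPZ libraries, so that separation is no further support. All 3 were under 10 CPM in both EPZ libraries and reached the limit through the Combo libraries.

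The Fc receptor-like gene FCRL5, a B cell receptor for IgG, rose from 2.58 and 1.98 CPM to 21.7 and 16.2 CPM. The adaptor genes SH2D6 and FYB1 rose by 3.11 ± 0.13 and 2.79 ± 0.22, and BMF, a BH3-only protein that promotes apoptosis, rose from 3.25 and 1.72 CPM to 18.4 and 18.6 CPM. FCGBP, SYTL2, GNG7, MAML2 and HIP1 completed the 12. The last 2 rested on Combo 2: MAML2, a Notch coactivator, was at 12.1 CPM in Combo 1 and 42.8 CPM in Combo 2 against 2.69 and 4.42 CPM, and HIP1, an endocytic adaptor, at 6.99 and 27.5 CPM against 2.13 and 3.56 CPM. Without Combo 2 their adjusted p was 0.16 and 0.14. PECAM1, also known as CD31 and listed here as an endothelial marker, rose from 29.2 and 32.1 CPM to 138 and 120 CPM, while the endothelial gene CDH5 was at 0 to 0.506 CPM in 7 libraries and at 4.78 CPM in Combo 2.

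**Figure D3:**
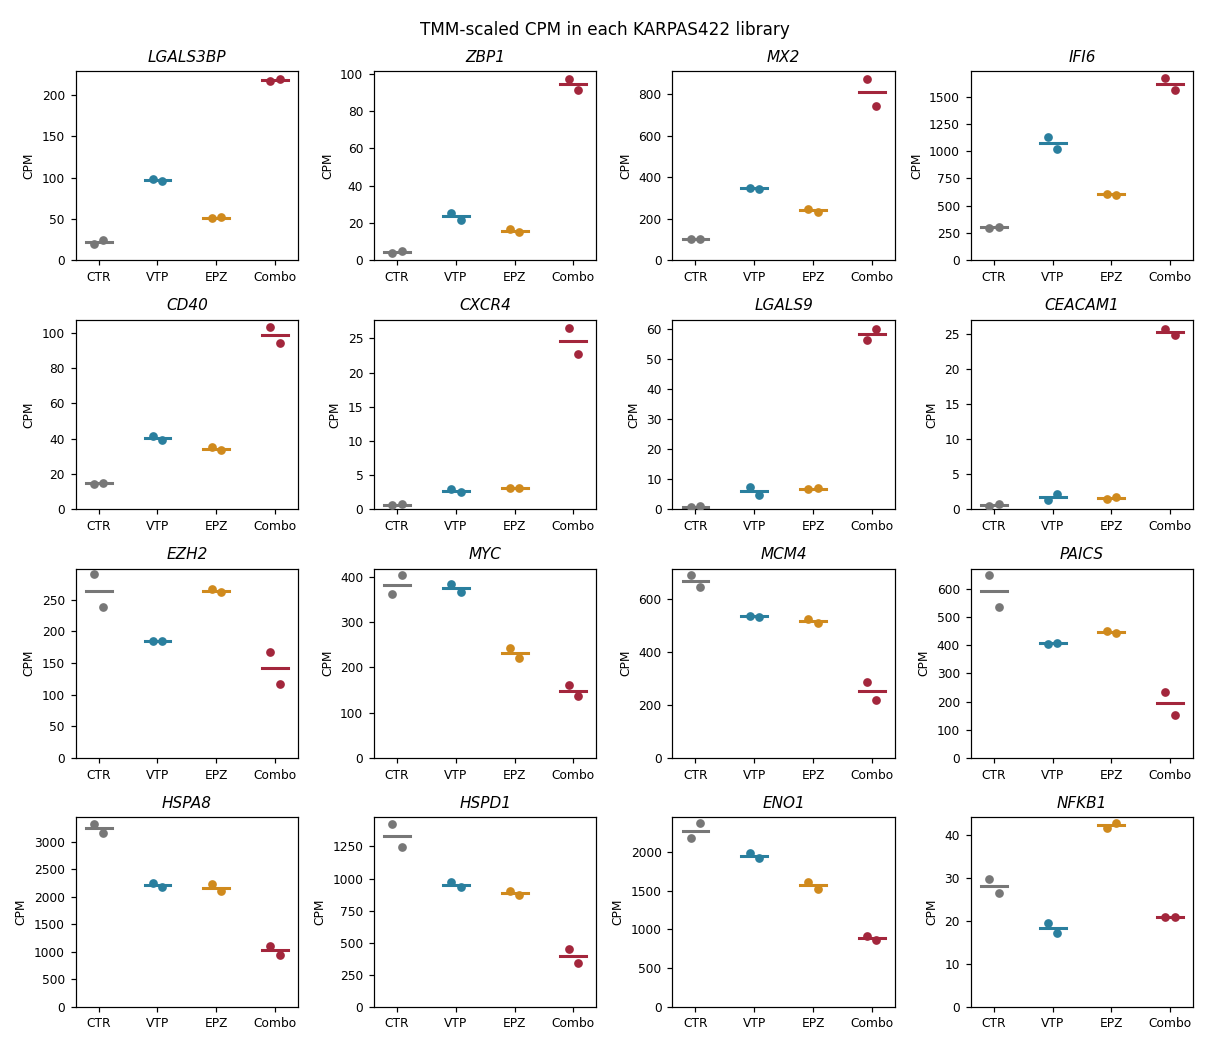
Each panel plots 1 gene in the 8 KARPAS422 libraries as CPM scaled by TMM, with a point for each library and a bar at the mean of each group of 2. The upper 2 rows hold genes that rose, for which both Combo points lie above all other points, and the lower 2 rows hold genes that fell from EPZ to Combo, of which EZH2 and PAICS show the wider gap between the Combo points.

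Among B cell surface antigens 12 of 33 tested members were higher and 0 lower, with a median of 0.64, and without Combo 2 the count was 17. CD40, the receptor through which T cells activate B cells, rose from 35.4 and 33.3 CPM to 103 and 94.2 CPM, a change of 1.52 ± 0.10 with an adjusted p of 0.002. It was at 14.3 and 14.9 CPM in CTR and at 41.4 and 39.2 CPM with VTP50469 alone, so the Combo libraries exceeded all other groups. CD70, a ligand of the TNF family, rose by 1.02 ± 0.10 and the interleukin-10 receptor chain IL10RA by 1.10 ± 0.11. CD38, an ectoenzyme of germinal center and plasma cells, rose from 15.7 and 16.7 CPM to 49.9 and 33.2 CPM. MS4A1, which encodes the pan-B cell antigen CD20, changed by 0.18 ± 0.23 and did not pass the test.

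In the B cell receptor signaling list 7 of 30 members were higher and 1 lower, and 10 and 0 without Combo 2. PRKCB, a kinase that links the receptor to NF-kB, rose from 73.7 and 80.2 CPM to 192 and 176 CPM, a change of 1.26 ± 0.10, and SH3BP5, an inhibitor of the kinase BTK, rose by 1.34 ± 0.11. The phospholipase PLCG2 was lower by 0.28 on the log2 scale, but not without Combo 2 (adjusted p = 0.19). Of 27 NF-kB targets 6 were higher and 3 lower. The chemokine receptor CCR7 rose from 1.34 and 1.19 CPM to 8.01 and 10.1 CPM, and the activation marker CD83 from 3.7 and 4.09 CPM to 13.3 and 10.4 CPM, both near the limit of 10 CPM or under it. NFKB1, which encodes the p105 precursor of an NF-kB subunit, went the other way, from 41.7 and 42.8 CPM to 20.9 and 20.8 CPM, a change of -1.02 ± 0.10. With VTP50469 alone it was at 19.4 and 17.2 CPM, against 29.8 and 26.4 CPM in CTR.

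Immediate early genes changed in 10 of 27 members, 7 upward and 3 downward. JUN, a subunit of the AP-1 factor, rose from 14.5 and 10.6 CPM to 57.4 and 55.6 CPM, a change of 2.19 ± 0.14. JUND, an AP-1 subunit known to bind menin, rose from 92.2 and 84.8 CPM to 242 and 217 CPM, a change of 1.38 ± 0.16. It did not differ between EPZ and CTR beyond the test (log2 change 0.01) and stood at 233 and 197 CPM with VTP50469 alone. DUSP5, a phosphatase of ERK, rose by 1.35 ± 0.22 and the zinc finger gene KLF6 by 0.93 ± 0.20.

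Lists of B cell identity moved in both directions. Germinal center genes were higher in 5 and lower in 5 of 23 members, with a median of -0.05, and without Combo 2 in 7 and 5 with a median of 0.25. The LIM protein LMO2 rose from 8.29 and 9.11 CPM to 25.4 and 25 CPM. The repair glycosylase UNG fell by 0.89 on the log2 scale, MYBL2 by 0.70 and EZH2 itself by 0.89. Of 27 B cell transcription factors 3 were higher and 3 lower, and 7 and 3 without Combo 2. ID2, an inhibitor of E proteins, rose from 11.5 and 13.5 CPM to 45.2 and 34.1 CPM, whereas MEF2C fell from 186 and 183 CPM to 93 and 61.2 CPM, IKZF1 by 0.79 and EBF1 by 0.51 on the log2 scale. EBF1 passed the test without Combo 2 as well (adjusted p = 0.074).

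Plasma cell genes did not move as 1 group, with 4 of 16 higher and 3 lower. SDC1, the plasma cell antigen CD138, fell from 36.3 and 38.3 CPM to 15.5 and 16.9 CPM, a change of -1.21 ± 0.09 with an adjusted p of 0.0031. XBP1, the factor that builds the secretory apparatus, fell from 74.6 and 65.5 CPM to 41.7 and 34 CPM, a change of -0.89 ± 0.13. The proviral kinase PIM2 and SLAMF7 were higher, the latter under 10 CPM.

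The 12 largest falls at 10 CPM or more ranged from -1.21 to -1.91. The homeobox gene MIXL1 fell from 21.9 and 27.2 CPM to 7.39 and 5.67 CPM, a change of -1.91 ± 0.18 with an adjusted p of 0.005. BCAT1, the cytosolic branched-chain aminotransferase, fell from 231 and 221 CPM to 90.1 and 52.3 CPM, and COCH from 76 and 64.9 CPM to 26.6 and 19.4 CPM. BCAT1 and COCH did not differ between EPZ and CTR beyond the test. POLR3G, a subunit of RNA polymerase III, showed the widest gap between the Combo libraries, at 74.6 and 38.2 CPM against 135 and 136 CPM. BAG2, MAMLD1, CDCA7, NAB1, MEF2C, MPP6, FKBP5 and SDC1 made up the rest. All 12 fell in each of 17 alternative fits. MIXL1, COCH, MAMLD1 and SDC1 had an adjusted p under 0.1 in all 17. POLR3G did in 12 of them and the rest in 15.

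The heat shock list had the lowest median of all lists, -0.85. These chaperones fold newly made and damaged proteins, and their genes answer to the factor HSF1. Of 12 tested members 9 were lower and 0 higher, and without Combo 2 the count was 10. HSPA8, the constitutive HSP70, fell from 2229 and 2106 CPM to 1104 and 946 CPM, a change of -1.08 ± 0.08 with an adjusted p of 0.0031. The mitochondrial chaperonin HSPD1 fell from 901 and 875 CPM to 448 and 338 CPM, a change of -1.18 ± 0.14, STIP1, which joins HSP70 to HSP90, by 0.92 and HSP90AB1 by 0.86 on the log2 scale. HSPA8 was at 3329 and 3168 CPM in CTR, 2252 and 2177 CPM with VTP50469 alone and about the same with EPZ-6438 alone, so each drug alone left it below CTR and the Combo libraries lay lowest.

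The heat shock element was searched on both strands as TTC, GAA and TTC with any 2 bases between neighbours, and 6 of the 11 list members with a promoter in RefSeq held it (54.5%), against 52 of 10185 tested genes (0.511%). All 6 were among the members that fell, as were 9 of all 11 with a promoter. The promoters of HSPA8 (chr11:123062087-123062386, minus strand) and HSPD1 (chr2:197499791-197500090, minus strand) are shown because each holds 2 matches, in capitals. In HSPD1 the matches overlap.
HSPA8: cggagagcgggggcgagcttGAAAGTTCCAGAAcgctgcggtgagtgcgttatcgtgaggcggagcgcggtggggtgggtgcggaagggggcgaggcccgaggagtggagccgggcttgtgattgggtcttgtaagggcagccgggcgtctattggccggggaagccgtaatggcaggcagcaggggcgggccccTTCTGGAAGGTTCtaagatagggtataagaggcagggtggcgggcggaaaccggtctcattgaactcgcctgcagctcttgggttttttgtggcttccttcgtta
HSPD1: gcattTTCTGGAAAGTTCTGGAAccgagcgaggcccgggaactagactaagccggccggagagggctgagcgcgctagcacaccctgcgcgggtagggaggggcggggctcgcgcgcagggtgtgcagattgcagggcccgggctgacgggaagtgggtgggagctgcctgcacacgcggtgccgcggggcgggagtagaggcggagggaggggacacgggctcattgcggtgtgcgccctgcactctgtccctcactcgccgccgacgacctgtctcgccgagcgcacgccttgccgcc

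Genes of the unfolded protein response and folding in the endoplasmic reticulum were lower in 9 of 27 members and higher in 1, with a median of -0.39 that was -0.18 without Combo 2. HSPA5, which encodes the chaperone BiP, fell from 815 and 795 CPM to 552 and 442 CPM, a change of -0.69 ± 0.11. ERN1, the sensor IRE1 alpha, was the member that rose, from 8.07 and 6.8 CPM to 15.9 and 19 CPM. Proteasome genes were lower in 14 of 27 members and higher in 0, with a median of -0.39, though 8 were lower without Combo 2.

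Genes of ribosome biogenesis fell together. The list holds factors that transcribe, cut and assemble ribosomal RNA, and 39 of its 43 tested members were lower and 0 higher, with a median of -0.67 and a range of -1.06 to -0.34. All 43 had the same sign in both replicate pairs, and 36 were lower without Combo 2. MRTO4, an assembly factor of the large subunit, fell from 115 and 97.7 CPM to 55.7 and 50 CPM, with an adjusted p of 0.0079, and the Combo mean was 0.498 of the EPZ mean. UTP4 fell by 1.06, BYSL by 0.74 and NOP56 by 0.68 on the log2 scale. The ribosomal protein genes themselves changed little, since 6 of 56 were lower and 2 higher, with a median of -0.11. The E-box CACGTG, the site of MYC and related factors, was present in 16 of 33 list members with a promoter (48.5%), against 1235 of 10185 tested genes (12.1%). Of these 16 members 14 fell, as did 30 of all 33 with a promoter. The MRTO4 promoter (chr1:19251555-19251854, plus strand) is shown with its E-box, which begins 14 bases after the start site, in capitals.
MRTO4: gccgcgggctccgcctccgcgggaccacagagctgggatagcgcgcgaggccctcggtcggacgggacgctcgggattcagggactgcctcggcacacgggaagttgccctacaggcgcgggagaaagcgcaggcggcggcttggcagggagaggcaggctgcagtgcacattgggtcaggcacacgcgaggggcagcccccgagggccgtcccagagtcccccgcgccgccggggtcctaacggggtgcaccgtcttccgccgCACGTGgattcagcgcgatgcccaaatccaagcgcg

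MYC fell from 243 and 220 CPM to 160 and 138 CPM, a change of -0.64 ± 0.12 with an adjusted p of 0.025. It was at 361 and 405 CPM in CTR and at 385 and 367 CPM with VTP50469 alone, a log2 change of -0.03 that did not pass the test. In the MYC network list 7 of 18 members were lower and 3 higher. EIF5A and LDHA, both MYC targets, fell by 0.68 and 1.17 on the log2 scale, and the members that rose were MXD3, MXD4 and MXI1, which encode proteins that compete with MYC for its partner MAX. MXD4 rose from 161 and 143 CPM to 238 and 240 CPM.

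DNA replication genes controlled by E2F were lower in 42 of 54 members and higher in 0, with a median of -0.64, and 37 were lower without Combo 2. In bulk libraries fewer cycling cells and less RNA of these genes per cell cannot be told apart. The helicase subunits MCM4, MCM2 and MCM7 fell together. MCM2 fell from 274 and 252 CPM to 145 and 144 CPM, a change of -0.86 ± 0.11, and MCM4 from 526 and 511 CPM to 287 and 221 CPM, a change of -1.03 ± 0.13. ORC1, a subunit of the origin recognition complex, fell by 0.83 on the log2 scale. An E2F site, TTTGGCGC, was searched on both strands. It was present in 10 of 44 members with a promoter (22.7%), against 136 of 10185 tested genes (1.34%). Of these 10 members 9 fell, as did 34 of all 44 with a promoter. The MCM6 promoter (chr2:135876394-135876693, minus strand) is shown because it holds 2 such sites, in capitals.
MCM6: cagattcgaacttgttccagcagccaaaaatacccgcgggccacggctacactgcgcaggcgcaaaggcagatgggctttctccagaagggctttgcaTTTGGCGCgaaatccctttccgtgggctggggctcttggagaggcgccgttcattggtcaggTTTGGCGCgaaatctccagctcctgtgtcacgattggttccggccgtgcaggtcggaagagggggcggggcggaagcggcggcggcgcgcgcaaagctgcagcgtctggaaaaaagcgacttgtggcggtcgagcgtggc
MCM6 fell from 311 and 292 CPM to 172 and 126 CPM.

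Mitosis genes were lower in 25 of 38 members and higher in 0, with a median of -0.58, but 15 were lower without Combo 2. The checkpoint gene MAD2L1 fell from 135 and 129 CPM to 78.2 and 52.9 CPM, and the kinase PLK1 from 180 and 173 CPM to 117 and 113 CPM. Replication-dependent histone genes were higher in 3 of 18 tested members and lower in 0. Of 42 listed only 6 were at 10 CPM or more, so a fall in most of them would be hard to call. HIST1H2AC rose from 6.28 and 8.18 CPM to 35.4 and 24.3 CPM and HIST1H2BD from 23.6 and 20.7 CPM to 46.7 and 43.3 CPM. Histone genes have near-identical copies, so these values are uncertain.

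Nucleotide synthesis was lower in 14 of 18 members and higher in 0, with a median of -0.63. PAICS and GMPS, enzymes of purine synthesis, fell from 450 and 444 CPM to 235 and 154 CPM and from 192 and 193 CPM to 102 and 74.4 CPM. ATIC, which closes the purine ring, fell by 0.79 and CTPS1, which makes CTP, by 0.64 on the log2 scale. Serine and one-carbon genes were lower in 10 of 18 members and higher in 1. The folate enzymes MTHFD1 and SHMT2 fell by 0.83 and 0.62 on the log2 scale. The serine enzyme PSAT1 fell from 118 and 109 CPM to 69.4 and 50.6 CPM, and the glutamine transporter SLC1A5 from 89.1 and 85.2 CPM to 58 and 57.4 CPM. SLC1A5 was at 125 and 148 CPM in CTR and at 144 and 138 CPM with VTP50469 alone.

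The stress factor ATF4 fell by 0.42 on the log2 scale and its target ASNS by 0.88, while DDIT4, an inhibitor of mTORC1, rose from 98.8 and 96.9 CPM to 195 and 194 CPM. The ATF4 list was split, with 5 of 22 higher and 6 lower. Aminoacyl-tRNA synthetases were lower in 10 of 23 members and higher in 0. In glycolysis 15 of 28 were lower and 2 higher, and 14 were lower without Combo 2. ENO1 fell from 1616 and 1522 CPM to 913 and 862 CPM, a change of -0.82 ± 0.07, LDHA from 1027 and 1012 CPM to 516 and 393 CPM, and GAPDH from 6303 and 5949 CPM to 4279 and 4474 CPM. Nuclear genes of oxidative phosphorylation were lower in 20 of 40 members, but in 8 without Combo 2, and splicing factors in 14 of 28 and 10, respectively.

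**Figure D4:**
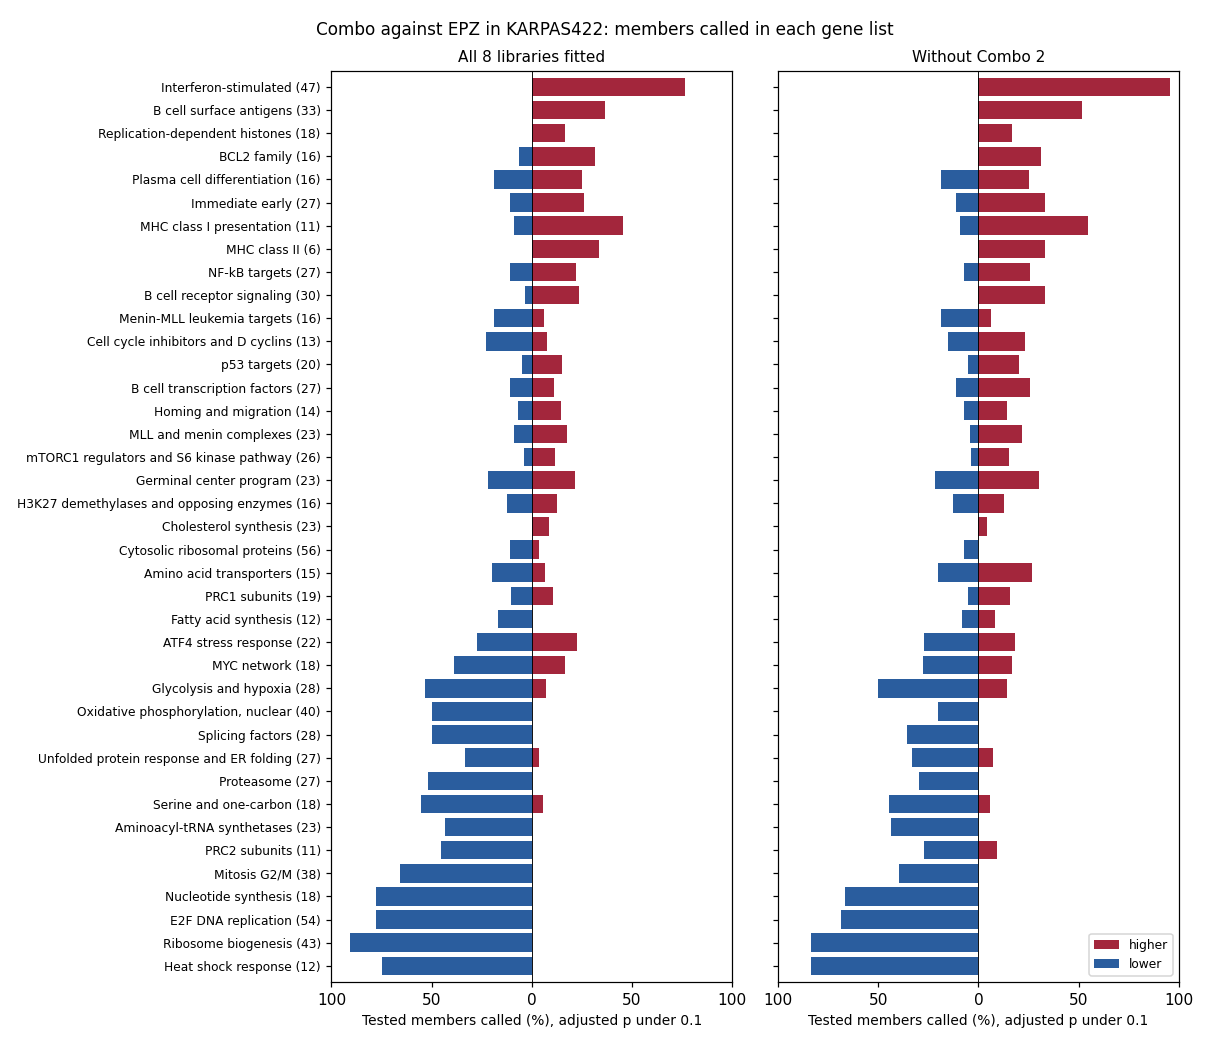
Bars give the percentage of each list's tested members (number in parentheses) called higher (red) or lower (blue) with both drugs at an adjusted p under 0.1, with all 8 libraries fitted on the left and without Combo 2 on the right. Interferon-stimulated genes are highest, with 36 of 47 and 45 of 47, and ribosome biogenesis has the longest blue bar on the left, with 39 of 43.

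The drug targets were measured too. EZH2 mRNA was at 266 and 263 CPM with EPZ-6438 alone and at 168 and 117 CPM with both drugs, a change of -0.89 ± 0.18 with an adjusted p of 0.031. It was at 291 and 238 CPM in CTR and at 185 and 185 CPM with VTP50469 alone. Of 11 PRC2 subunit genes 5 were lower, namely EZH2, EED, RBBP4, RBBP7 and PHF19, and 0 higher. EED and RBBP4 lost their calls without Combo 2 (adjusted p = 0.14 and 0.15), and 3 PRC2 genes were then lower and 1 higher. SUZ12 was at 223 CPM in Combo 1 and 121 CPM in Combo 2 against 253 and 254 CPM, and did not pass the test. MEN1 changed by -0.17 ± 0.11, KMT2A by -0.12 ± 0.18 and PSIP1, a partner of menin and KMT2A, by -0.47 ± 0.23, and none of these passed the test.

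Menin and MLL complex genes were higher in 4 of 23 and lower in 2, led by the elongation factor AFF1, which rose from 10.5 and 10.4 CPM to 38.5 and 30.4 CPM. Genes known as menin and MLL targets in leukemia were higher in 1 and lower in 3 of 16. MEF2C, CDK6 and HOXA7 fell and PBX3 rose. CDK6 was at 111 and 65.8 CPM against 164 and 161 CPM. In the BCL2 family 5 of 16 were higher and 1 lower, including the BH3-only genes BMF and BBC3, the latter at 5.36 and 6.72 CPM against 1.68 and 1.06 CPM, and the survival gene BCL2, which changed by 0.49 ± 0.10. Of 20 p53 targets 3 were higher and 1 lower, among them GADD45A, which rose from 22.1 and 19 CPM to 52.9 and 46.3 CPM. IRF5 rose by 0.81 ± 0.18 to a level of 14.7 and 16 CPM, while CD24 and MYB changed by -0.12 and -0.49 without passing the test.

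The remaining lists had few calls. Homing genes were higher in 2 and lower in 1 of 14, cell cycle inhibitors and D cyclins higher in 1 and lower in 3 of 13, and PRC1 subunits higher in 2 and lower in 2 of 19. Enzymes that remove or oppose lysine 27 methylation were higher in 2 and lower in 2 of 16, amino acid transporters higher in 1 and lower in 3 of 15, and mTORC1 regulators higher in 3 and lower in 1 of 26. Cholesterol synthesis genes were higher in 2 and lower in 0 of 23, and fatty acid synthesis genes higher in 0 and lower in 2 of 12. Without Combo 2 the counts were 4 higher and 3 lower for amino acid transporters, 3 and 2 for cell cycle inhibitors and D cyclins, and 3 and 1 for PRC1 subunits. No member of the mitochondrially encoded list was tested.

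Genes under 10 CPM were called mainly as rises, 290 against 16 of 4541 tested, and 275 of the 290 passed 1.5-fold in both replicate pairs. In this range Combo 2 held a larger share of its counts than any other library. The expression filter keeps genes counted in only 1 group, so a gene absent with EPZ-6438 can enter through the Combo libraries. The 5 largest rises were SIGLEC6, PGLYRP2, IL15, TNFSF10 and HRH3. SIGLEC6 had no count in either EPZ library and stood at 2.03 and 3.53 CPM with both drugs. TNFSF10, the death ligand TRAIL, was at 0.224 and 0.66 CPM against 7.16 and 6.43 CPM and kept its call without Combo 2 (adjusted p = 0.021), whereas IL15, PGLYRP2 and HRH3 did not (adjusted p = 0.22, 0.27 and 0.13). The 5 largest falls were SRGN, AC068896.1, MT1H, DSC1 and CEBPD, of which CEBPD, a CCAAT-binding factor, went from 13.7 and 11.9 CPM to 5.81 and 6.14 CPM.

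Whether VTP50469 acted differently with EPZ-6438 present was tested as the difference between Combo minus EPZ and VTP minus CTR. In edgeR 0 genes were more positive (0% of those tested) and 0 more negative (0%), with a smallest adjusted p of 0.72. At an unadjusted p under 0.05 there were 769 of 13223 tested genes, where a share of 0.05 is reached with no true difference. Of these, 689 were at 10 CPM or more, 115 positive and 574 negative. DESeq2 called 2 more positive and 26 more negative, of which the HSP90 cochaperone FKBP4 had the smallest adjusted p (6.6e-10), and limma-voom with library weights called 0 and 0. FKBP4 was at 416 and 419 CPM in CTR, 335 and 337 CPM with VTP50469, 274 and 269 CPM with EPZ-6438 and 143 and 132 CPM with both, an extra change of -0.67 in the edgeR fit. Other genes with the smallest unadjusted p in the negative direction were ALDH1B1, ENO1, DDN, AHNAK2 and SDC1. In the positive direction they were SH2D6, C16orf74, SERPINF1, EGR1, DGKA and HIST1H2BD. SERPINF1 was at 16.4 to 18.4 CPM in all CTR, VTP and EPZ libraries and at 32.1 and 31.2 CPM with both drugs.

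Side by side, VTP50469 alone against CTR called 315 genes higher (2.38%) and 12 lower (0.0908%), and it used none of the libraries of the main comparison. Of the 603 genes that rose in the main comparison 601 had the same sign there, with a median of 0.66, and 248 were called higher. Of the 696 that fell 687 had the same sign, with a smaller median of -0.31, and 7 were called lower. Over all genes of 10 CPM or more, 80.4% had the same sign in both comparisons. HSPA8 was among the genes lower in both, with -0.55 for VTP50469 alone, and CD40 among those higher in both, with 1.46.

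In DHL10 the same 2 treatments gave 122 genes higher (1.07%) and 151 lower (1.32%) at 24 h. Of the 555 risen KARPAS422 genes measured there 334 had the same sign and 12 were called higher, and of 686 fallen genes 348 had the same sign and 8 were called lower, while 11 and 5 were called in the opposite direction. Over all shared genes of 10 CPM or more the same sign was found in 54.7%. The medians there were 0.14 for interferon-stimulated genes, with 1 higher and 2 lower, 0.20 for ribosome biogenesis and 0.15 for heat shock genes. The 2 lines differ in treatment time, and the part of time and line cannot be told apart.

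For MI-503 against DMSO in KARPAS422, 1067 genes were higher (7.36%) and 399 lower (2.75%). Of 571 risen genes measured there 407 had the same sign and 117 were called higher, and of 685 fallen genes 536 had the same sign and 31 were called lower, where 62.8% of all genes of 10 CPM or more had the same sign. Interferon-stimulated genes had a median of -0.37 with MI-503, and 37 of 47 were lower and 2 higher, whereas E2F replication genes had a median of -0.51 and 51 of 54 were lower. Dose, time and compound all differ from the VTP50469 experiment, so these values are placed side by side without a test of their difference.

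**Figure D5:**
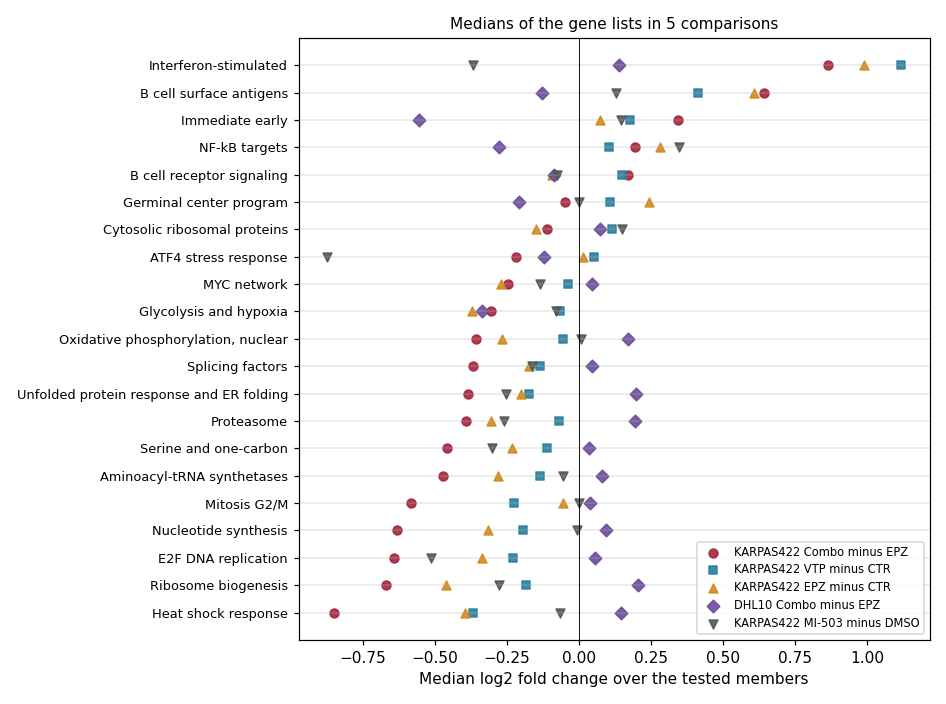
For each list with 8 or more members called in the main comparison, symbols give the median log2 fold change of its tested members in 5 comparisons. The KARPAS422 symbols for Combo minus EPZ, VTP minus CTR and EPZ minus CTR lie on the positive side for interferon-stimulated genes, at 0.86, 1.12 and 0.99, and on the negative side for heat shock and ribosome biogenesis genes, while the DHL10 symbols lie between -0.55 and 0.20.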

How the data were processed

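RNA-seq libraries, with ribosomal RNA removed, were read as gene counts. The authors deposited raw counts per gene, made with HISAT2 2.1.0 on hg38 and featureCounts 1.6.1, and CASAVA 1.7 and Picard 2.23.1 are listed in the submitters' processing notes. The sources used here give neither the strand setting nor the annotation or the handling of multi-mapped reads. Doses and times come from the study's text, and groups from the labels. Since no source states that the 2 libraries of a group are separate cultures, p-values reflect the spread between libraries alone, and this may be technical.

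The 8 KARPAS422 libraries entered 1 fit with TMM scaling, edgeR's expression filter and the quasi-likelihood test (edgeR 4.0.16, R 4.3.3), with Benjamini-Hochberg adjustment over all genes tested. Calls needed both an adjusted p below 0.1 and a change of more than 1.5-fold, and list members were counted at the adjusted p alone. CPM values were scaled by TMM, except the olfactory receptor sums, and the 10 CPM limit used the mean of the 4 libraries compared. The biological coefficient of variation was 0.346. Each SE was taken as the size of the log2 change over the square root of the test's F statistic. It thus rests on a spread estimated from all 8 libraries and not from the 4 compared. Simulated data held 200 changed genes among 13102. For Combo minus EPZ 49% of 2-fold changes were recovered (75.4% at 10 CPM or more) and 66% of 4-fold changes (100%), with 22 false calls. The simulation gave all groups the same spread for a gene. In the real data the Combo pair differed with an SD of 0.48 on the log2 scale and the EPZ pair with 0.16, so these rates may not hold here. DHL10 and MI-503 libraries were fitted separately.

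The comparison and the lists were chosen with earlier results of these data known. Genes named were the 12 largest rises and falls called at 10 CPM or more without overlap, up to 4 members per list of smallest p in its majority direction and called members against it, the drug targets and their partners, 5 genes that the study follows (PSAT1, SLC1A5, CD24, MYB, IRF5), the 5 largest rises and falls under 10 CPM, and the 6 smallest interaction p each way. IFIH1, ISG20, MCM6, MS4A1, CIITA and PECAM1 were named after their values were seen. So were the markers CD3G, DCN, CD2, CD8A, COL1A1, CDH5, CD4, VWF, CD3D, CD3E, TRAC, VIM and NCAM1. Some genes that the rule named are not reported here. Alternatives were DESeq2 1.42.0, limma 3.58.1, other scalings and filters, a replicate block and each library left out.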

Additional observations from a re-analysis of the deposited data

Results flagged for a closer look

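The naming rule chose 214 genes, not all of them measured in DHL10. For 18 of them the change on adding VTP50469 to EPZ-6438 went one way in KARPAS422 and the other way in DHL10. Each had an adjusted p under 0.1 in edgeR in each line and no overlap of libraries within either. Only opposite changes were collected, and BMF, for example, rose in both (2.91 and 0.77). The flag set no fold or CPM limit. Calls at 10 CPM or more also needed a change of more than 1.5-fold in each line. Of those calls, 12 rises and 8 falls were called the same way in DHL10, and 11 and 5 the opposite way. The difference between the lines was not tested, and treatment lasted 48 h in one and 24 h in the other. Values are log2 changes in KARPAS422 and then in DHL10.

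Of the flagged genes, 8 were higher in KARPAS422 and lower in DHL10. JUN changed by 2.19 and -1.20, with 12.2 and 9.5 CPM in the DHL10 EPZ libraries and 5.06 and 4.41 CPM in the DHL10 Combo libraries. The phosphatase DUSP5 changed by 1.35 and -1.34, the activation marker CD83 by 1.601 and -0.68, the receptor chain IL10RA by 1.10 and -0.70, KLF6 by 0.93 and -0.52, and the antiproliferative gene BTG2 by 0.69 and -0.43. The glycolytic regulators PFKFB3 and PFKFB4 changed by 0.69 and -0.53 and by 0.50 and -1.94.

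The other 10 were lower in KARPAS422 and higher in DHL10. The chaperone HSPA8 changed by -1.08 and 0.27, the cochaperones FKBP4 by -0.98 and 0.41 and STIP1 by -0.92 and 0.34, and XBP1 by -0.89 and 0.48. HSPA5 changed by -0.69 and 0.59, the disulfide isomerase PDIA4 by -0.54 and 0.37, and CALR by -0.35 and 0.68. DDN changed by -1.06 and 0.64, the ATP synthase subunit ATP5MC1 by -0.73 and 0.41, and the proteasome subunit PSMD2 by -0.45 and 0.43.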

How the results depend on the processing

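Over all genes tested, the main counts were 893 higher and 712 lower. Library totals alone gave 448 lower, the 4 libraries alone 489 higher and 368 lower, DESeq2 1413 higher, a fit on genes of 10 CPM or more 379 lower, and the adjusted p alone 1438 lower. At 10 CPM or more, where the main counts were 603 and 696, library totals gave 922 and 439, the 4 libraries alone 368 lower, the fit on those genes alone 1040 and 379, and a fold above 2 gave 223 and 55. Upward calls at 10 CPM or more made up 46.4% in the main fit, 67.7% with library totals, 33% with every gene kept and 59.2% with libraries thinned to the smallest. The cause of these shifts was not tested, except that the last fold limit and the 4-library fit are stricter or smaller by construction.

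Leaving out 1 library at a time gave 50 to 3161 genes higher and 12 to 2288 lower over all genes, and 50 to 779 and 12 to 2245 at 10 CPM or more. The lowest counts came without EPZ 1 or EPZ 2 and the highest without Combo 1. Without VTP 1 or VTP 2, which do not enter the comparison but share the estimate of spread, there were 508 and 357 or 513 and 359. Of the 603 rises 396 were called without either Combo library, and of the 696 falls 274. The interaction had 0 to 638 positive and 0 to 1097 negative calls, and only the fit without Combo 1 gave the highest of each. DESeq2 gave 2 and 26.

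With the replicate number as a block, 2761 genes were higher over all genes, and 725 were higher and 915 lower at 10 CPM or more. There are 2 pairs and no label ties a number to a shared day. For these reasons the numbers were not taken as pairs. At 10 CPM or more, deviations of same-numbered libraries correlated over genes with r = 0.335 to 0.842 and a Spearman rho of -0.31 to 0.82 across the 6 pairs of groups, highest for CTR with Combo, and with r = 0.46 and rho = -0.17 for EPZ with Combo. Of values for single genes under the alternatives, 2889 kept their side of the threshold, and 711 lost and 9 gained the call. The sign changed in 4 of 3609, all for CD24 and KMT2A, which were not called. Of 680 list medians 41, from 13 lists, changed sign. The largest of these was ATF4, from -0.22 to 0.0145 with no filter on low counts. Simulated 2-fold changes were recovered in 49% of all changed genes and in 75.4% at 10 CPM or more, with the same spread given to all groups.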
